A study of Mus musculus with 6 samples.

Results

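The cells described here are the tumour cells lowest in gastric-like genes from mouse pancreatic tumours, called gastric-low cells below. KPC cells, which come from a mouse pancreatic cancer, were grown as tumours in the pancreas of C57BL/6J mice labelled wild-type. The labels divide 6 mice into 3 given #44-anti-mVSIG4, an antibody against the macrophage receptor VSIG4, and 3 given control IgG, and tumours were taken on day 11 after inoculation. Each mouse gave 1 single-cell RNA library, so the mouse is the replicate and p-values measure the spread between these 6 libraries. The host mice keep their own immune, stromal and pancreatic cells, and the labels give no dose, dosing schedule, age or number of KPC clones.

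Members were chosen from unique molecular identifier (UMI) counts, each UMI standing for 1 captured RNA molecule. A barcode passed the tumour gate with at least 5 UMIs of the keratins Krt8, Krt18, Krt19 and Krt7, no UMI of the leukocyte gene Ptprc and at most 5 UMIs of the collagens Col1a1, Col1a2 and Col3a1. Of 47794 barcodes, 2104 passed (4.402%). Gate cells were then ranked within each library by the share of their UMIs in Tff1, Lgals4, Prap1 and Lgals2, with ties broken by fewer total UMIs, and the lowest 1 in 3 were kept. This gave 700 gastric-low cells, 1.46% of all barcodes. The anti-VSIG4 libraries held 124, 77 and 61 of them and the IgG libraries 78, 121 and 239. The other 1404 gate cells are called the remaining gate cells.

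Pancreatic ductal tumours are often placed on a scale from a classical state, which carries gastric and intestinal epithelial genes under transcription factors such as HNF4A and GATA6, to a basal-like or mesenchymal state that has lost them. Trefoil factor 1 (Tff1), the galectins Lgals4 and Lgals2 and the intestinal secretory protein Prap1 are epithelial genes of stomach or gut, and TFF1 and LGALS4 are used in human tumours to mark the classical state. Loss of epithelial junction genes, gain of mesenchymal and matrix genes, hypoxia and slower or faster cycling are the features usually examined in cells that lack it.

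The 4 ranked genes set membership, and their values are a description only. Tff1 averaged 4.82 ± 5.03 CPM in gastric-low cells and 722 ± 560 CPM in the remaining gate cells (SD, n = 6 libraries), where CPM is the gene's count per 1000000 UMIs summed over those cells of a library. Lgals4 averaged 10.8 ± 6.47 and 1076 ± 525 CPM, Prap1 3.62 ± 3.64 and 675 ± 798 CPM, and Lgals2 21.1 ± 15.6 and 781 ± 122 CPM. No UMI of any of the 4 was seen in 544 members, while 156 had at least 1. At the boundary, the last member inside and the first cell outside had 109 and 117, 0 and 0, and 236 and 246 ranked CPM in the anti-VSIG4 libraries. The same pair had 311 and 312, 228.2 and 228.6, and 208.7 and 209.4 ranked CPM in the IgG libraries. In the library of anti-VSIG4 mouse 2 the boundary fell among cells with no ranked UMI, and 6 such cells lay outside it.

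Depth entered the choice of members. Members with no ranked UMI had a median of 2665.5 UMIs per cell, and those with at least 1 had 14975.5. Gastric-low cells had median UMIs of 2658, 2474 and 6421 in the anti-VSIG4 libraries and 3662.5, 5497 and 4428 in the IgG libraries. The remaining gate cells had 3335, 4085 and 4722.5 in the anti-VSIG4 libraries and 3642, 6650.5 and 6447 in the IgG libraries. The ranking was therefore repeated on cells thinned to 1000 UMIs each. After thinning, 48.3% of all gate cells had no ranked UMI, all 700 cells then ranked lowest were among them, and the order within them came from total UMIs alone. Of those 700 cells, 507 were members in the ranking used here. Their median was 2868 UMIs, against 3663 for the members used here. The thinned ranking thus chose shallower cells and did not hold depth equal, so calls that ended or turned under it cannot be read as freed from depth. A ranking inside 3 depth bins of each library, added after the data were seen, was the other check. Calls that ended under the thinned ranking, and list counts that differ inside depth bins, are given beside the gene groups.

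The label was checked against keratins and against Acan, Tnnt2 and Tm4sf1, which mark these KPC tumours. Acan encodes the cartilage proteoglycan aggrecan, Tnnt2 cardiac troponin T and Tm4sf1 a membrane protein of migrating cells. At least 1 UMI of the 3 markers was found in 58.0% of gastric-low cells (406 of 700) and 63.6% of the remaining gate cells, against 10.8% of barcodes outside the gate. The exact 95% interval for gastric-low cells, 54.2 to 61.7%, covers counting error and not the spread between mice. By library this share was 53.2, 61.0 and 54.1% with anti-VSIG4 and 70.5, 50.4 and 60.3% with IgG. The remaining gate cells had 61.8, 61.3 and 53.3% with anti-VSIG4 and 65.0, 61.2 and 68.7% with IgG. Summed over the cells of all libraries, to which IgG mouse 3 gave the most, the 3 markers reached 1215 CPM in gastric-low cells, 858 CPM in the remaining gate cells and 172 CPM outside the gate. By library they stood at 473, 866 and 1565 CPM in anti-VSIG4 gastric-low cells and 820, 899 and 1603 CPM in IgG gastric-low cells. In the remaining gate cells they stood at 671, 771 and 786 CPM with anti-VSIG4 and 684, 583 and 1078 CPM with IgG. They were higher in gastric-low cells of all libraries except anti-VSIG4 mouse 1. Krt8, a gate gene, stood at 1538, 4006 and 2330 CPM in anti-VSIG4 gastric-low cells and 3829, 2219 and 4033 CPM in IgG gastric-low cells. Its levels in the other gate cells were 3755, 4439 and 6666 CPM with anti-VSIG4 and 4794, 6542 and 7606 CPM with IgG. Krt8 was thus lower in gastric-low cells of every library. Krt18 averaged 2311 ± 726 and 3174 ± 705 CPM, and was lower in 4 of 6 libraries.

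A subset of members carried markers of other cell types. Cells with more than 0.5% of their UMIs, and at least 3 UMIs, in a fixed marker list of another cell type numbered 137 of 700 (19.6%) among gastric-low cells and 88 of 1404 (6.27%) among the remaining gate cells. They took 26.6, 10.4 and 27.9% of gastric-low cells in the anti-VSIG4 libraries and 12.8, 29.8 and 13.8% in the IgG libraries. The lists were of macrophage, neutrophil, lymphocyte, endothelial, acinar and mesothelial markers, without Msln. No duct, islet or fibroblast list entered this limit, so barcodes with such RNA could stay in. Macrophage markers passed this limit in 84 members, neutrophil markers in 34 and acinar markers in 23, some members passing more than 1. Endothelial, lymphocyte and mesothelial markers passed it in 0 members. At least 1 UMI of the endothelial list was nonetheless seen in 19 of 700 members (2.71%), against 5 of 1404 remaining gate cells (0.356%), and of the lymphocyte list in 36 (5.14%) against 57 (4.06%), so the limit does not bound how many such cells or doublets are present. In the 137, Krt8 stood at 614 CPM, Acan at 7.003, the acinar trypsinogen Prss2 at 4284, the macrophage lysozyme Lyz2 at 4710 and the neutrophil calprotectin S100a8 at 2783. In the other 563 members the same genes stood at 3719, 375, 23.1, 154 and 121 CPM. The 3 tumour markers were seen in 26.3% of the 137 and in 65.7% of the 563. Summed, they stood at 59.5 CPM in the 137, 1512 CPM in the 563 and 172 CPM outside the gate. The 137 were above the outside level in anti-VSIG4 mouse 2 (326 and 170 CPM) and IgG mouse 1 (441 and 109 CPM). In the other libraries they were below it, and there these markers do not bear out the name tumour cells. The gate keratins stood at 1270, 8916 and 1725 CPM, the 137 being below the outside level in IgG mice 2 and 3 alone. Doublets were not removed, and whether the 137 barcodes hold 2 cells, another cell type or free RNA was not tested. Gene list counts between gastric-low and remaining gate cells are therefore given with and without them, except for the duct and islet list. Single genes whose call ended or began are given both ways too. By treatment, list values without them are given for some lists alone. This setting was added after the data were seen.

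**Figure D1:**
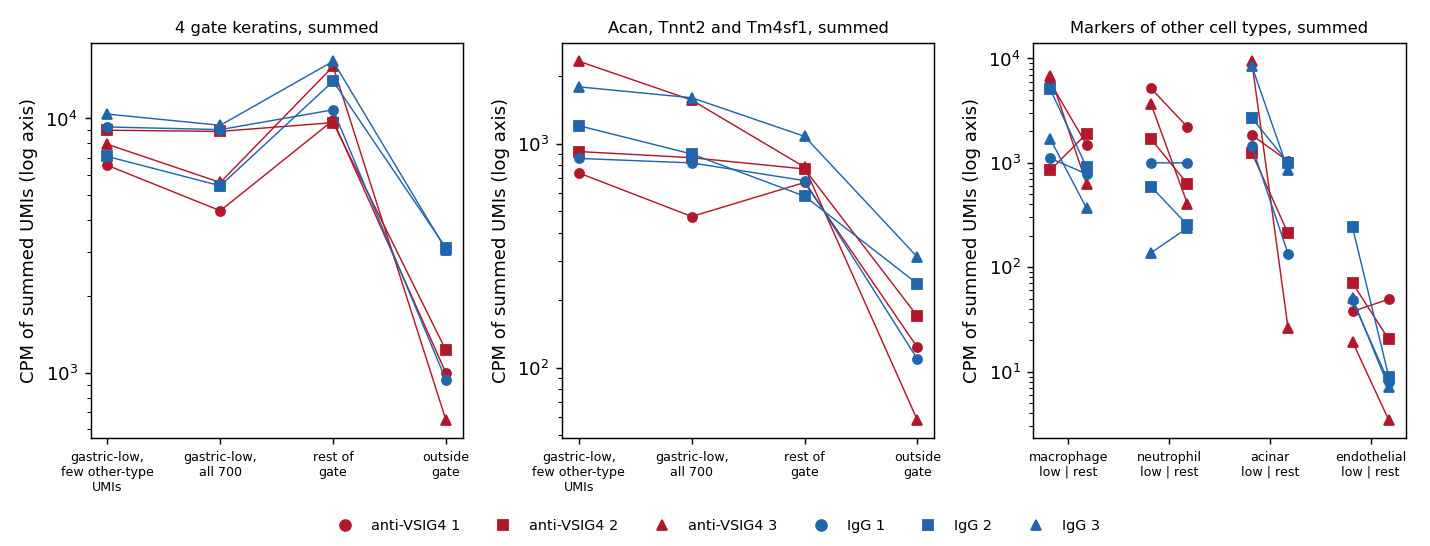
Keratins (left), the 3 tumour markers (middle) and marker lists of other cell types (right) as CPM of summed UMIs on log axes, 1 symbol per library, with lines joining the parts of a library. Over all libraries tumour markers summed to 1215 CPM in gastric-low cells, 1512 CPM in those without other-type markers and 858 CPM in the rest of the gate, with anti-VSIG4 mouse 1 the other way for all members (473 and 671 CPM). Acinar markers were higher in gastric-low cells of every library, macrophage markers in all but anti-VSIG4 mouse 2 (852 and 1905 CPM), and neutrophil markers in all but IgG mouse 3 (138 and 238 CPM), with IgG mouse 1 nearly level (1001 and 999.9 CPM).

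Summed macrophage markers stood at 5881, 852 and 6841 CPM in anti-VSIG4 gastric-low cells and 1106, 5054 and 1691 CPM in IgG gastric-low cells. Neutrophil markers stood at 5165, 1691 and 3659 CPM with anti-VSIG4 and 1001, 593 and 138 CPM with IgG, with no overlap between the groups. Acinar markers stood at 1848, 1254 and 9398 CPM with anti-VSIG4 and 1458, 2696 and 8499 CPM with IgG. The defining markers of these lists were present in every library, Lyz2 at 245 to 2164 CPM and C1qa at 194 to 2323 CPM in gastric-low cells. Insulin (Ins1) was seen in gastric-low cells of IgG mice 1 and 3 alone, at 7601 and 5689 CPM, from 39 cells of which 1 held 43.0% of all its UMIs. Fibroblast RNA was low, with Dcn at 1.58 to 12.3 CPM.

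Libraries also differed in kind. Cells with over 15% of their UMIs in genes spanning over 100 kb made up 0.651 and 1.47% of barcodes in anti-VSIG4 libraries 1 and 2 and 1.060% in IgG library 1. They made up 9.74% in anti-VSIG4 library 3 and 21.9 and 48.6% in IgG libraries 2 and 3. Among gastric-low cells the shares were 1.61, 7.79 and 21.3% with anti-VSIG4 and 3.85, 23.1 and 38.1% with IgG. Library totals ran from 26606234 to 47221033 UMIs, and gastric-low sums from 226427 to 2271486 UMIs.

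Gastric-low cells were compared with the remaining gate cells of the same library, to describe which programmes go with low gastric-like genes. Counts were summed per library and part and tested with edgeR's quasi-likelihood test with library as a block. Adjusted p-values are Benjamini-Hochberg over all genes tested, with a threshold of 0.05. Because ranking and testing used the same cells, any gene that varies with the 4 ranked genes across tumour cells had to differ, so the calls below describe the sets and are no independent evidence of a programme. Of 10123 genes, 2208 passed (21.8%), 1060 higher (10.5%) and 1148 lower (11.3%) in gastric-low cells. Without cells carrying other-type markers, 1859 of 9399 passed (19.8%), 802 higher (8.53%) and 1057 lower (11.2%). The median log2 difference over all genes was 0.00, and 0.01 without those cells. Under the thinned ranking 920 of 9805 passed (9.38%), 454 higher (4.63%) and 466 lower (4.75%). Inside depth bins 2376 of 10130 passed (23.5%), 1198 higher (11.8%) and 1178 lower (11.6%). List counts under those settings are to be read against these shares. Without IgG mouse 3 the count was 1272, and without IgG mouse 2 it was 1314. Of 163 genes called among the 273 tested from the fixed set and the lists' examples, 63 passed in the same direction on the thinned ranking, 3 passed in the other direction, 95 did not pass and 2 were not tested. Inside depth bins 155 of the 163 passed in the same direction, and without cells carrying other-type markers 130 did, 28 did not pass and 5 were not tested.

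Other gastric and intestinal genes, which the ranking did not use, were lower as a group. Of 38 tested, 31 fell and 3 rose in gastric-low cells, with a median log2 difference of -1.80. The 3 that rose were Sox2, a stem cell transcription factor (2.55), the lysozyme Lyz1 (1.86), which is near-identical to macrophage Lyz2 so that reads may be shared, and Tesc (1.55). Without cells carrying other-type markers 28 of 35 fell and the median was -1.80. The thinned ranking gave 22 of 34 lower and 0 higher, with a median of -1.21, and depth bins gave 29 of 38 lower and 3 higher. Lyz1 was not tested without cells carrying other-type markers, and of the 3 that rose only Tesc was tested on the thinned ranking, where it did not pass (1.68, edgeR adjusted p = 0.0938).

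The largest falls among genes at 50 CPM or more were in mucus and gut surface genes. Phgr1, a gut epithelial gene, stood at 3.15, 4.42 and 0 CPM in anti-VSIG4 gastric-low cells and 0, 6.04 and 4.84 CPM in IgG gastric-low cells. Values in the remaining gate cells were 261, 98.4 and 326 CPM with anti-VSIG4 and 167, 564 and 418 CPM with IgG. The sets did not overlap in any library, and the log2 difference was -6.70 ± 0.27 (SE, edgeR adjusted p = 1.3e-10), and -6.55 without cells carrying other-type markers. Clca1, a secreted goblet cell protein, fell by 7.32 on the log2 scale, the mucus protein Fcgbp by 6.76 and the gastrokine Gkn2, a stomach lining protein, by 6.68. Gkn1 fell by 5.87, Lypd8 by 5.72 and its neighbour in name Lypd8l by 5.71, Lypd8 being a colon protein that binds bacterial flagella. Reads of such close family members may be shared, so their separate values are uncertain.

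Duoxa2, which matures the peroxide-making oxidase DUOX2, averaged 5.65 ± 3.16 CPM in gastric-low cells and 105 ± 61.4 CPM in the remaining gate cells (SD, n = 6). Its log2 difference was -4.21 ± 0.24 (edgeR adjusted p = 1.0e-09). Further falls were seen in Mucl3 (-5.67), mitochondrial creatine kinase Ckmt1 (-5.52), the glutathione transferase Gsta1 (-4.68), the membrane mucin Muc13 (-4.48), Tm4sf5 (-4.39), the proton channel Otop3 (-4.31) and the mast cell protease gene Mcpt2 (-3.57), all log2 differences. All of these kept their direction in 6 of 6 libraries. Muc13 no longer passed under the thinned ranking, where it was at -2.45 (edgeR adjusted p = 0.061). The others passed there with smaller differences, Phgr1 at -3.89, Clca1 at -4.70, Duoxa2 at -1.95 and Otop3 at -2.13.

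A secretory helper and a regulator of the same programme were lower too. Agr2, a protein-folding enzyme needed for mucin, averaged 0.493 ± 0.89 CPM in gastric-low cells and 33.3 ± 31.1 CPM in the remaining gate cells, a log2 difference of -5.40 ± 0.42 (edgeR adjusted p = 1.1e-07). The transcription factor Hnf4a stood at 17.3, 8.83 and 9.69 CPM in anti-VSIG4 gastric-low cells and 43.3, 21.9 and 30.4 CPM in IgG gastric-low cells. In the remaining gate cells Hnf4a stood at 64.6, 42.0 and 82.1 CPM with anti-VSIG4 and 52.1, 86.6 and 83.4 CPM with IgG. It was lower in all 6 libraries, by 1.75 ± 0.25 on the log2 scale (edgeR adjusted p = 1.7e-04). The difference was -1.51 without cells carrying other-type markers and -0.89 on the thinned ranking, and it passed in both. The protease Ctse fell by 1.56 and the intestinal cadherin Cdh17 by 1.29. Cldn18, a stomach claudin, fell by 0.49 and did not pass without cells carrying other-type markers, at -0.22 (edgeR adjusted p = 0.20).

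**Figure D2:**
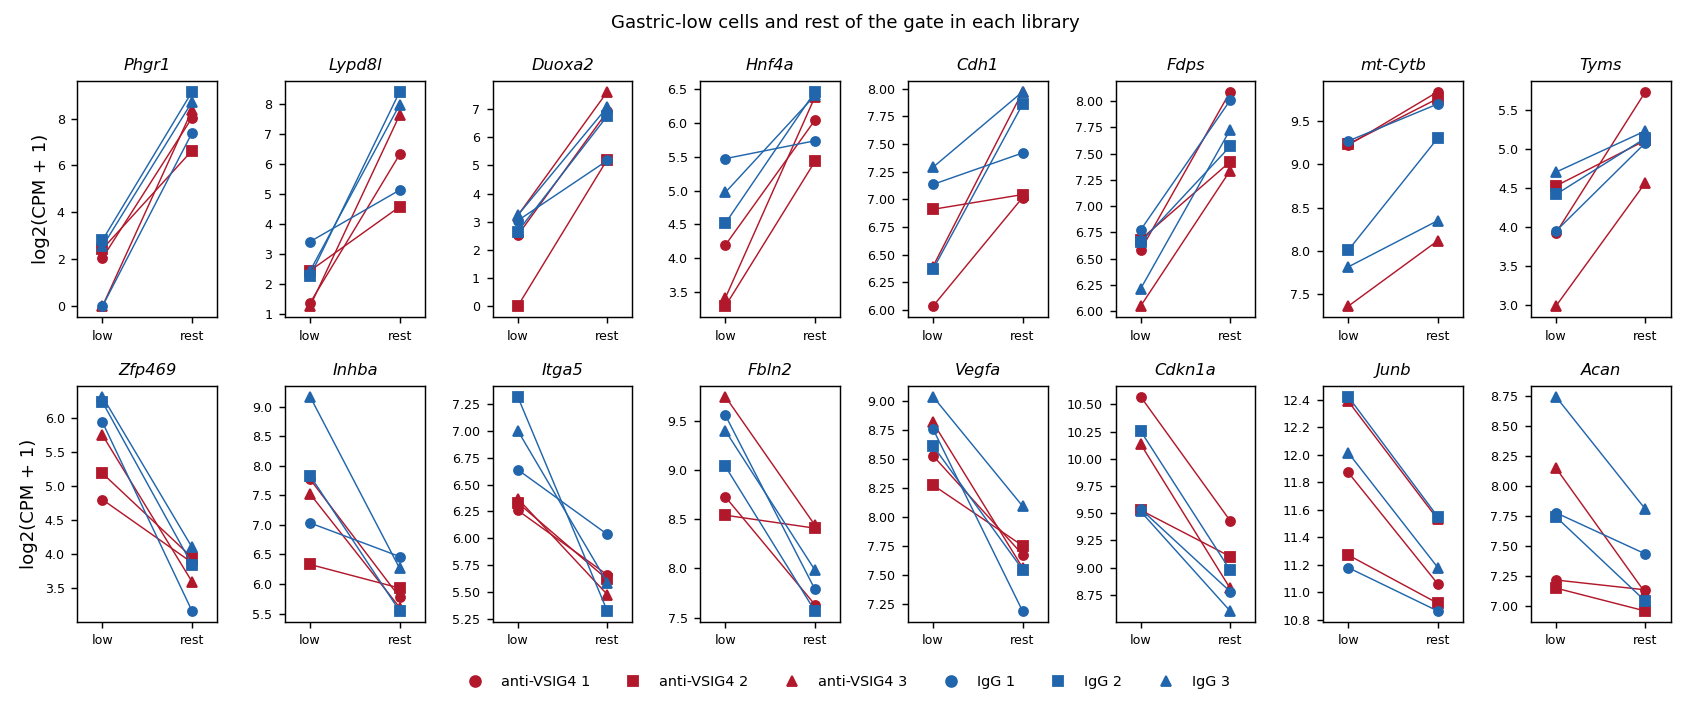
Level of 16 genes as log2(CPM + 1) in gastric-low cells (left of each panel) and the rest of the gate (right), 1 symbol and line per library; the y axes do not start at 0. The 8 genes of the top row were lower in gastric-low cells of all 6 libraries, and the 8 of the bottom row were higher in all 6, Acan by the least.

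Epithelial junction genes and their regulators were lower as a group. Of 22 tested, 10 fell and 0 rose, with a median log2 difference of -1.09, and 9 of 21 fell without cells carrying other-type markers. E-cadherin (Cdh1) stood at 64.6, 119 and 83.1 CPM in anti-VSIG4 gastric-low cells and 140, 81.6 and 155 CPM in IgG gastric-low cells. Among the remaining gate cells it stood at 128, 131 and 250 CPM with anti-VSIG4 and 170, 231 and 250 CPM with IgG. It was lower in every library, by 0.94 ± 0.18 on the log2 scale (edgeR adjusted p = 0.0016) and by 0.74 without cells carrying other-type markers. The tight junction scaffold Tjp3 fell by 2.36, the epithelial transcription factor Ehf by 1.43 and the protease inhibitor Spint2 by 1.34.

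Epcam, an epithelial adhesion molecule, had a mean of 81.2 ± 89.9 CPM in gastric-low cells and 295 ± 146 CPM in the remaining gate cells. Its log2 difference of -2.31 ± 0.67 did not pass (edgeR adjusted p = 0.067). One library was opposite, anti-VSIG4 mouse 2 with 261 CPM in gastric-low cells and 208 CPM in the remaining ones, and without it Epcam passed at -2.82 (edgeR adjusted p = 0.0076). The thinned ranking gave 5 of 21 epithelial genes lower with a median of -0.37, and Cdh1 and Ehf then did not pass, at -0.27 and -0.66 (edgeR adjusted p = 0.25 and 0.0684), while Epcam did, at -0.99 (edgeR adjusted p = 0.0033). Inside depth bins 13 of 21 were lower, and Epcam passed at -2.22 (edgeR adjusted p = 0.0354).

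Mesenchymal genes were higher as a group. Of 36 tested, 13 rose and 1 fell, with a median log2 difference of 0.67, and without cells carrying other-type markers 16 of 33 rose and the same median was 0.83. Inhba, the activin A subunit, stood at 217, 79.5 and 183 CPM in anti-VSIG4 gastric-low cells and 130, 227 and 574 CPM in IgG gastric-low cells. Inhba stood, in the remaining gate cells, at 53.8, 60.03 and 47.6 CPM with anti-VSIG4 and 87.3, 45.6 and 75.9 CPM with IgG. It was higher in 6 of 6 libraries, by 1.80 ± 0.37 on the log2 scale (edgeR adjusted p = 0.019). Without anti-VSIG4 mouse 1, anti-VSIG4 mouse 3 or IgG mouse 2 in turn it just missed the threshold, at 1.76, 1.80 and 1.69 (edgeR adjusted p = 0.063, 0.062 and 0.0595).

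The transcription factor Zeb2, a repressor of E-cadherin, rose by 1.39 and the fibronectin receptor subunit Itga5 by 1.09. Itga5 averaged 104 ± 33.0 CPM in gastric-low cells and 48.6 ± 8.70 CPM in the remaining gate cells. The 1 that fell was Tpm2, a tropomyosin, at -0.86. Vimentin (Vim), the usual mesenchymal filament, averaged 1343 ± 310 and 1141 ± 275 CPM and did not pass (log2 difference 0.20 ± 0.10, edgeR adjusted p = 0.17). At a keratin minimum of 10 UMIs Vim passed at 0.30 (edgeR adjusted p = 0.038). With cells over 0.5% other-type UMIs left out before ranking it passed at 0.29 (edgeR adjusted p = 0.033). On the thinned ranking it was at -0.20 and did not pass (edgeR adjusted p = 0.352).

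Under the thinned ranking 1 of 33 mesenchymal genes was higher and 2 were lower, with a median of 0.04, and Inhba (0.67, edgeR adjusted p = 0.375), Itga5 (0.61, 0.0874) and Zeb2 (1.33, 0.20) did not pass. Inside depth bins 18 of 36 were higher and 1 was lower.

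Of 11 cartilage and muscle genes tested, 4 rose and 2 fell, with a median of 0.57, and without cells carrying other-type markers 5 of 10 rose and 1 fell. Zfp469 and Fbln2, described beside them, belong to no cartilage list. Zfp469, a zinc finger gene linked in humans to collagen disorders of the cornea, stood at 26.8, 35.3 and 52.6 CPM in anti-VSIG4 gastric-low cells and 60.1, 74.0 and 78.4 CPM in IgG gastric-low cells. Zfp469 stood, in the remaining gate cells, at 13.6, 14.4 and 11.0 CPM with anti-VSIG4 and 7.94, 13.3 and 16.1 CPM with IgG, below every gastric-low value. Its log2 difference was 2.07 ± 0.23 (edgeR adjusted p = 6.0e-06) and 0.275% of its UMIs in gastric-low cells came from cells with other-type markers. The matrix glycoprotein Fbln2 averaged 599 ± 191 and 257 ± 69.5 CPM (log2 difference 1.18). The proteoglycan Vcan rose by 2.02 and the transcription factor Sox9, active in both cartilage and pancreatic duct, by 1.12. None of these 4 passed under the thinned ranking, with Zfp469 at 0.05, Fbln2 at -0.19, Vcan at 0.24 and Sox9 at -0.07 (edgeR adjusted p = 0.942, 0.567, 0.729 and 0.864).

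Acan stood at 148, 141 and 284 CPM in anti-VSIG4 gastric-low cells and 219, 214 and 429 CPM in IgG gastric-low cells. Acan levels in the remaining gate cells were 140, 124 and 137 CPM with anti-VSIG4 and 172, 131 and 223 CPM with IgG. It was higher in 6 of 6 libraries, by 0.54 ± 0.14 on the log2 scale (edgeR adjusted p = 0.0091), and by 0.83 without cells carrying other-type markers. Without IgG mouse 3 it did not pass, at 0.47 (edgeR adjusted p = 0.0665), nor under the thinned ranking, at 0.28 (edgeR adjusted p = 0.197). Tnnt2 averaged 261 ± 171 and 143 ± 57.4 CPM (log2 difference 0.65 ± 0.51, edgeR adjusted p = 0.43) and Tm4sf1 537 ± 208 and 464 ± 105 CPM (0.12 ± 0.13, edgeR adjusted p = 0.55). Neither passed, and under the thinned ranking Tm4sf1 fell by 0.55 (edgeR adjusted p = 0.031).

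Targets of YAP and TGF-beta signalling were higher, with 13 of 26 up, 0 down and a median log2 difference of 0.68, and 11 of 27 up and 0 down without cells carrying other-type markers. Tgfb1, the ligand itself, rose by 1.04, Pmepa1, a feedback inhibitor of the pathway, by 0.49 and the YAP-binding Amotl1 by 1.22. Extracellular proteases and inhibitors had 10 of 19 up and 0 down (8 of 18 and 0 without those cells), among them the metalloprotease Adam8 at 1.15. On the thinned ranking 1 of 24 YAP and TGF-beta genes and 2 of 19 protease genes passed, and Tgfb1 (0.55), Pmepa1 (-0.13), Amotl1 (0.20) and Adam8 (0.55) did not (edgeR adjusted p = 0.0634 to 0.733). Basal-like keratin and squamous genes did not move together, with 2 of 9 up and 2 down (2 and 0 without those cells), and Krt14, a basal keratin, fell by 1.16. Without cells carrying other-type markers Krt14 did not pass, at -0.88 (edgeR adjusted p = 0.078), nor on the thinned ranking (-0.45, 0.431) or inside depth bins (-1.08, 0.0535).

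Hypoxia genes were higher, with 9 of 20 up, 0 down and a median log2 difference of 0.58, and 10 of 20 up and 1 down without cells carrying other-type markers. Vegfa, which drives vessel growth, averaged 413 ± 74.3 CPM in gastric-low cells and 202 ± 42.0 CPM in the remaining gate cells. Its lowest gastric-low value, 309 CPM in anti-VSIG4 mouse 2, was above the highest value of the remaining cells, 273 CPM in IgG mouse 3, and the log2 difference was 1.00 ± 0.12 (edgeR adjusted p = 2.6e-05), and 0.98 without those cells. The glucose transporter Slc2a1 rose by 0.71, the MYC antagonist Mxi1 by 0.86 and the oxygen sensor Egln1 by 0.80. Glycolysis enzymes had 0 of 16 called and a median of 0.11, and 2 of 16 rose without those cells. The thinned ranking gave 5 of 20 hypoxia genes higher, and Egln1 did not pass (0.08, edgeR adjusted p = 0.794).

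Early response genes, which include the Fos and Jun families and heat shock genes, were higher, with 13 of 22 up, 0 down and a median log2 difference of 0.53, and 14 of 22 up and 0 down without cells carrying other-type markers. Junb stood at 3742, 2469 and 5358 CPM in anti-VSIG4 gastric-low cells and 2316, 5484 and 4133 CPM in IgG gastric-low cells. Remaining gate cells had Junb levels of 2134, 1935 and 2955 CPM with anti-VSIG4 and 1861, 2993 and 2318 CPM with IgG. The gastric-low value was the higher of the pair in every library, by 0.64 ± 0.09 on the log2 scale (edgeR adjusted p = 1.0e-04) and by 0.63 without those cells, although values overlapped between libraries. Jun rose by 0.79, Klf2 by 0.72 and the phosphatase Dusp1 by 0.67. These genes are also induced by tissue dissociation, whose part in the difference was not tested. On thinned cells 7 of 22 were higher.

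Among cell cycle inhibitors and p53 targets 5 of 21 rose and 2 fell, with a median log2 difference of 0.29, and 4 of 21 rose and 1 fell without cells carrying other-type markers. Cdkn1a, which encodes the p21 inhibitor, averaged 1013 ± 329 CPM in gastric-low cells and 502 ± 107 CPM in the remaining gate cells. It was higher in 6 of 6 libraries, by 0.94 ± 0.12 on the log2 scale (edgeR adjusted p = 2.7e-05), and by 0.53 without cells carrying other-type markers. Plk2 rose by 1.33, Gadd45a by 0.77 and Btg2 by 0.69. Cdkn2a, which encodes p16 and ARF, averaged 346 ± 110 and 358 ± 35.5 CPM, and Trp53 55.6 ± 8.53 and 60.1 ± 9.51 CPM. Neither passed (edgeR adjusted p = 0.51 and 0.50), nor did Myc at 45.7 ± 16.5 and 38.3 ± 12.1 CPM (log2 difference 0.28, edgeR adjusted p = 0.30). Of the unfolded protein response, 3 of 19 rose and 0 fell, among them the stress transcription factors Ddit3 (0.90) and Atf4 (0.48), and 4 of 19 rose without cells carrying other-type markers. On the thinned ranking Plk2 (0.36), Gadd45a (0.48) and Atf4 (0.30) did not pass (edgeR adjusted p = 0.0771 to 0.395).

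Biosynthetic and mitochondrial genes were lower. Cholesterol synthesis had 9 of 20 down, 0 up and a median log2 difference of -0.70, and 7 of 19 down without cells carrying other-type markers. Fdps, which makes farnesyl diphosphate, stood at 94.5, 102 and 65.1 CPM in anti-VSIG4 gastric-low cells and 108, 99.7 and 73.1 CPM in IgG gastric-low cells. Remaining gate cells had Fdps levels of 271, 170 and 161 CPM with anti-VSIG4 and 256, 189 and 211 CPM with IgG. Every gastric-low value lay below every value of the remaining cells, and the log2 difference was -1.27 ± 0.13 (edgeR adjusted p = 3.4e-06), and -1.17 without those cells. Cyp51 fell by 1.15 and Srebf2, the pathway's main activator, by 0.57. Neither passed under the thinned ranking, at -0.60 and -0.03 (edgeR adjusted p = 0.0716 and 0.94).

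Mitochondrially encoded genes had 11 of 11 down with a median of -0.66, mt-Cytb averaging 409 ± 216 and 640 ± 280 CPM. Nuclear respiratory chain genes had 11 of 24 down (median -0.30), ribosomal protein genes 15 of 28 (median -0.23) and MYC and ribosome biogenesis genes 8 of 27 (median -0.28), each with 0 up. With cells carrying other-type markers left out, these 4 lists had 11 of 11, 13 of 24, 16 of 28 and 6 of 27 down. Under the thinned ranking mitochondrially encoded genes turned round, with 5 of 12 higher, 0 lower and a median of 0.85, mt-Cytb rising by 0.82 (edgeR adjusted p = 0.0298), and cholesterol genes had 3 of 20 lower. Inside depth bins 11 of 11 mitochondrially encoded genes were lower.

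Genes that face the immune system moved in different directions. MHC class I and antigen processing had 1 of 20 up and 5 down with a median of -0.12, and 0 up and 8 down without cells carrying other-type markers. The immunoproteasome subunits Psmb10 and Psmb8 fell by 0.61 and 0.47, and did not pass under the thinned ranking, at -0.28 and -0.17 (edgeR adjusted p = 0.21 and 0.491). B2m averaged 1942 ± 581 and 1811 ± 336 CPM (log2 difference 0.03, edgeR adjusted p = 0.87), and fell by 0.26 without those cells (edgeR adjusted p = 0.0485). H2-K1 averaged 1368 ± 300 and 1580 ± 300 CPM (log2 difference -0.25, edgeR adjusted p = 0.069), and fell by 0.42 without those cells (edgeR adjusted p = 0.0043) and by 0.26 inside depth bins (edgeR adjusted p = 0.0344). H2-D1 averaged 1118 ± 289 and 1071 ± 173 CPM and did not pass in either.

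Cd274, which encodes the checkpoint ligand PD-L1, stood at 145, 92.7 and 99.7 CPM in anti-VSIG4 gastric-low cells and 72.2, 71.0 and 41.8 CPM in IgG gastric-low cells. Among the remaining gate cells Cd274 stood at 94.0, 26.4 and 29.0 CPM with anti-VSIG4 and 64.6, 33.7 and 21.2 CPM with IgG. It was higher in gastric-low cells of all 6 libraries, by 0.98 ± 0.19 on the log2 scale (edgeR adjusted p = 0.0017) and by 0.81 without cells carrying other-type markers. Cells with other-type markers held 40.3% of its gastric-low UMIs, and with a keratin minimum of 10 UMIs it did not pass, at 0.35 (edgeR adjusted p = 0.27). Of the interferon-gamma list, 5 of 26 rose and 2 fell, Cxcl10 rising by 1.05 and the tryptophan-degrading enzyme Ido1 falling by 1.87. Cxcl10 and Ido1 did not pass on the thinned ranking, at 0.78 and -0.76 (edgeR adjusted p = 0.21 and 0.182). The type I interferon list had 2 of 18 up and 0 down. The interferon-gamma list had 3 of 23 up and 2 down, and the type I list 0 of 18 up and 1 down, without cells carrying other-type markers.

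NF-kB and TNF targets had 8 of 29 up and 1 down, with the inhibitor Nfkbie at 1.00, the cytokine Il6 at 1.76 and the chemokine Ccl5 at 0.82, which was at -0.22 without cells carrying other-type markers, and the acute phase list had 5 of 10 up and 0 down. Without those cells the first list had 7 of 29 up and 0 down, with Il6 still called, and the acute phase list 3 of 9 up and 1 down. On the thinned ranking Il6 and Ccl5 did not pass, at 1.62 and 0.30 (edgeR adjusted p = 0.272 and 0.313). Lcn2, a siderophore-binding protein of epithelium and neutrophils, averaged 647 ± 502 CPM in gastric-low cells and 223 ± 227 CPM in the remaining gate cells. Its log2 difference was 1.47 ± 0.28 (edgeR adjusted p = 0.011), and 0.88 without cells carrying other-type markers, which held 48.7% of its UMIs. Under the thinned ranking it did not pass, at 1.24 (edgeR adjusted p = 0.21). The matrix cytokine Spp1 rose by 0.57, but did not pass on the thinned ranking (-0.15, edgeR adjusted p = 0.502) or inside depth bins (0.53, 0.0743), and mesothelin (Msln), a surface antigen of many ductal tumours, fell by 0.96 ± 0.18 (edgeR adjusted p = 0.0036).

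Of the other large rises, several came largely from cells with other-type markers. The antibacterial lectin Reg3b (log2 difference 3.98) and the kallikrein Klk1 (3.92), both made by exocrine pancreas, had 97.7 and 97.6% of their gastric-low UMIs in such cells. The chemokine Ccl24 (2.00), the Fc receptor Fcgr3 (1.69), coagulation factor F10 (1.64), the transcription factor Runx3 (1.66), the syndecan Sdc3 (1.65) and the signalling regulators Rgs2 (1.64) and Rgcc (1.73) had between 54.9 and 81.9%. Tnfrsf9, the co-stimulatory receptor 4-1BB, rose by 1.65 with 43.0% and by 1.20 without those cells. Without those cells Reg3b was at 0.00, Ccl24 at 0.53 and Fcgr3 at 0.40, and none of these 3 passed (edgeR adjusted p = 1.00, 0.15 and 0.14), while Klk1 was too low to be tested. F10, Runx3, Sdc3, Rgs2 and Rgcc still passed as higher without those cells. Reg3b also missed the threshold without each of 5 of the 6 libraries, all but anti-VSIG4 mouse 1 (edgeR adjusted p = 0.0624 to 0.116), Klk1 without the same 5 (0.0696 to 0.12), and Ccl24 and Fcgr3 without 4 each (0.0561 to 0.131). Sdc3 missed it without IgG mouse 2 or 3 (edgeR adjusted p = 0.0765 and 0.0855). On the thinned ranking Reg3b (4.56), Klk1 (3.89), Ccl24 (1.43), Fcgr3 (0.85), Runx3 (1.21), Sdc3 (0.62) and Rgcc (0.54) did not pass (edgeR adjusted p = 0.0638 to 0.356), and inside depth bins Reg3b did not (3.50, 0.0723).

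The other 3 of the 15 largest rises lay mostly in cells without other-type markers. Frmd6, a Hippo pathway scaffold, had 5.76% of its gastric-low UMIs in cells with them and Plekho1, a regulator of the actin skeleton, 34.6%. Lrg1, a secreted glycoprotein, had 29.3%, and 1 cell held 24.3% of its UMIs. Frmd6 rose by 1.57 (edgeR adjusted p = 0.049), Plekho1 by 1.60 (9.3e-04) and Lrg1 by 1.68 (0.03). Frmd6 did not pass without anti-VSIG4 mouse 1 or 2 or IgG mouse 2 or 3 (1.48 to 1.70, edgeR adjusted p = 0.0789 to 0.143), and Lrg1 did not without anti-VSIG4 mouse 3 or IgG mouse 1 or 3 (1.59 to 1.74, edgeR adjusted p = 0.0733 to 0.0988). Without cells carrying other-type markers neither passed, at 1.76 and 1.68 (edgeR adjusted p = 0.0619 and 0.133). On the thinned ranking Frmd6 was at 0.34 and Plekho1 at 0.77, and neither passed (edgeR adjusted p = 0.519 and 0.0907).

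Marker lists of other cell types had higher medians in the same comparison, in which 10.5% of all genes were called higher. Macrophage and dendritic markers had 7 of 16 up with a median of 1.55 and neutrophil markers 5 of 11 with 0.85. Endothelial and pericyte markers had 2 of 7 up with 1.94. Acinar markers had 1 of 18 up with 2.49, a share of calls below that of all genes. Without cells carrying other-type markers these lists became 0 of 13 with 0.21, 2 of 11 with 0.18, 1 of 7 with 2.10 and 0 of 10 with 0.15. The share of all genes called higher in that setting was 8.53%. The duct and islet list had 5 of 10 up and 3 down. Their part in the differences of other genes was not tested beyond leaving those cells out.

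**Figure D3:**
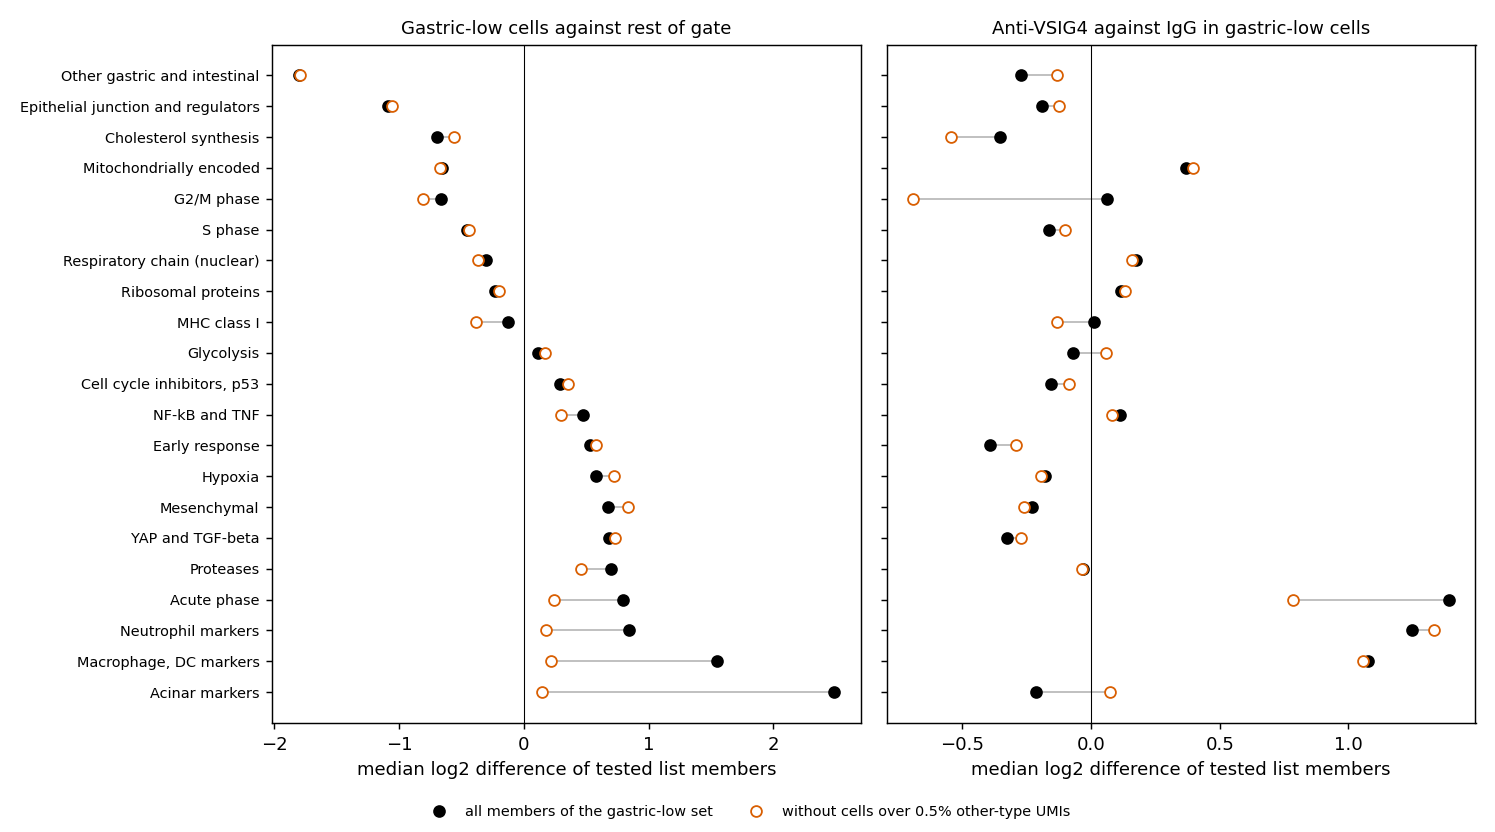
Median log2 difference of the tested members of 21 gene lists, for gastric-low cells against the rest of the gate (left) and for anti-VSIG4 against IgG within gastric-low cells (right). Filled points use all members and open points leave out cells with more than 0.5% other-type UMIs; on the left, the acinar list moved from 2.49 to 0.15 and the macrophage list from 1.55 to 0.21, while the gastric list stayed at -1.80.

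Cycling was measured as the share of all UMIs that fell in fixed S phase and G2/M phase lists. The share was 0.164, 0.148 and 0.118% in anti-VSIG4 gastric-low cells and 0.161, 0.111 and 0.143% in IgG gastric-low cells. The other gate cells had 0.222, 0.180 and 0.122% with anti-VSIG4 and 0.235, 0.171 and 0.179% with IgG. Gastric-low cells were lower in 6 of 6 libraries, with means of 0.141 ± 0.0220% and 0.185 ± 0.0402% (SD, n = 6, exact two-sided sign-flip test p = 0.031, the smallest that 6 libraries allow). Leaving out the cells with over 0.5% other-type UMIs gave a difference of -0.0485 percentage points (6 of 6 lower, exact p = 0.031). Ranking inside depth bins gave -0.0374 with 5 of 6 lower (exact p = 0.09375). Leaving out every cell with 3 or more other-type UMIs turned it to 0.0119, with 4 of 6 higher (exact p = 0.59). That filter counted Msln among the mesothelial markers, which the 0.5% limit did not. It left 17, 26 and 15 gastric-low cells with anti-VSIG4 and 19, 22 and 95 with IgG. Their median UMIs ran from 1292 to 2256 by library, against 2474 to 6421 for all members, so this setting compares few and shallow cells. Neutrophil-type barcodes outside the gate, which should not cycle, had 0.111 to 0.150%, a range that overlaps the gastric-low values. Hmgb2, a G2/M list gene that is high in immature myeloid cells too, made up 43.8 to 46.9% of G2/M UMIs in anti-VSIG4 gastric-low cells and 22.95 to 27.6% in IgG ones. Without Hmgb2 the share was 0.113, 0.107 and 0.0829% in anti-VSIG4 gastric-low cells and 0.141, 0.0948 and 0.121% in IgG gastric-low cells. Neutrophil-type barcodes then had 0.0895, 0.0936 and 0.0701% with anti-VSIG4 and 0.0759, 0.0831 and 0.0999% with IgG, below gastric-low cells in every library. The difference from the remaining gate cells was -0.0434 without Hmgb2 (6 of 6 lower, exact p = 0.031).

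**Figure D4:**
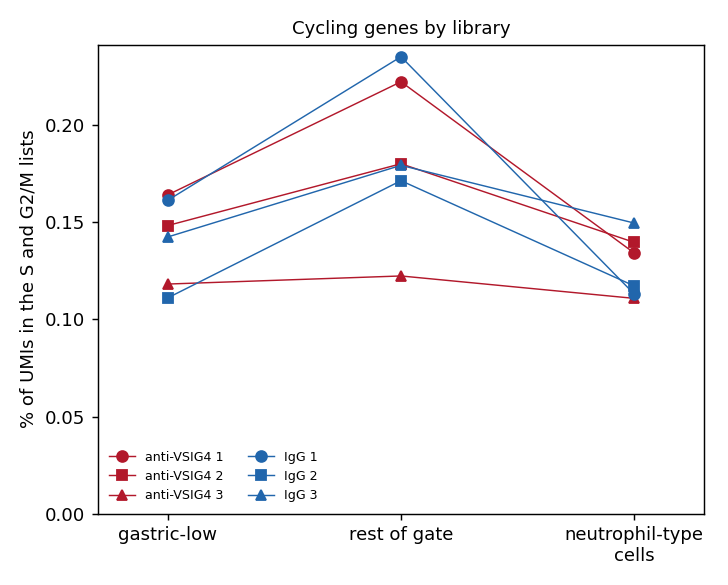
Share of UMIs in the S and G2/M lists (y axis, percent) in gastric-low cells, the rest of the gate and neutrophil-type cells outside the gate, 1 line per library. Every line is higher in the rest of the gate than in gastric-low cells, and gastric-low values (0.111 to 0.164%), Hmgb2 included, overlap the neutrophil-type background (0.111 to 0.150%).

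By gene, 7 of 25 S phase genes and 9 of 31 G2/M genes fell and 0 rose, with medians of -0.46 and -0.66, and 7 of 24 and 12 of 29 fell without cells carrying other-type markers. On the thinned ranking 0 of 23 S phase and 1 of 32 G2/M genes fell. Tyms, which makes thymidylate for DNA synthesis, averaged 17.2 ± 6.61 CPM in gastric-low cells and 35.4 ± 9.59 CPM in the remaining gate cells, a log2 difference of -1.05 ± 0.22 (edgeR adjusted p = 0.003). Ribonucleotide reductase Rrm2 fell by 1.14, the mitotic kinesin Kif23 by 1.17, cyclin A2 (Ccna2) by 1.43 and survivin (Birc5) by 0.70, and on the thinned ranking Tyms, Rrm2, Kif23 and Ccna2 did not pass (-0.66 to -0.61, edgeR adjusted p = 0.0892 to 0.266). Mki67 averaged 15.2 ± 9.70 and 17.3 ± 3.93 CPM and Top2a 51.8 ± 10.8 and 57.7 ± 24.96 CPM, and neither passed (edgeR adjusted p = 0.75 and 0.86). The S list alone gave 0.0555% in gastric-low cells and 0.0743% in the remaining ones (exact p = 0.031), and the G2/M list alone 0.0855 and 0.111% (exact p = 0.09375).

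Cells with at least 1 G2/M UMI made up 77.1% of gastric-low and 79.5% of the remaining gate cells. After thinning each cell to 1000 UMIs these shares were 42.1 and 42.6% (exact p = 0.75). Neutrophil-type barcodes gave 46.6 to 58.3%, so the thinned share lay at background and no order is read from it. Under the thinned ranking the difference in UMI share was -0.0194 percentage points (exact p = 0.125).

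Anti-VSIG4 and IgG libraries were then compared within gastric-low cells, the study's treatment contrast. No gene passed with edgeR, 0 of 6894 (0.0%), while 345 had an unadjusted p under 0.05 and DESeq2 called 15. Anti-VSIG4 and IgG values did not overlap for 676 genes (9.81%), 210 with anti-VSIG4 above IgG (3.05%) and 466 with it below (6.76%). On simulated counts of these depths, the test found 13.2% of genes set to differ 2-fold and 82.6% of genes set to differ 4-fold, so smaller changes were mostly not detectable. The simulation gave every gene the spread typical of its level. It had no genes of larger spread and no single cells holding many UMIs, so it may overstate what could be found here. The median log2 difference over all genes was 0.00. In bulk sums such as these, fewer cells of a state and less RNA per cell cannot be told apart.

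The libraries with few and with many cells rich in long genes were also fitted apart. They were split at 5% of barcodes, a limit set after the data were seen. Anti-VSIG4 mice 1 and 2 against IgG mouse 1 gave 3 calls, and anti-VSIG4 mouse 3 against IgG mice 2 and 3 gave 101, each with a lone library assumed to vary like the others. With that split as a covariate edgeR called 0.

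The 10 genes with the smallest p, none of which passed with edgeR (adjusted p 0.50 to 0.64), passed with DESeq2 (adjusted p 1.1e-04 to 0.046). Lcn2 stood at 668, 1307 and 1195 CPM with anti-VSIG4, against 351, 169 and 193 CPM with IgG. The groups did not overlap, with a log2 difference of 2.22 ± 0.36 (edgeR adjusted p = 0.50). Cells with other-type markers held 82.1, 27.7 and 75.6% of its UMIs with anti-VSIG4 and 3.4, 13.4 and 10.9% with IgG, and without them the difference was 1.17. Without those cells Lcn2 stood at 199, 1044 and 438 CPM with anti-VSIG4, against 374, 198 and 193 CPM with IgG, and the groups overlapped. A single cell held 59.4, 26.0 and 63.0% of its UMIs with anti-VSIG4 and 56.8, 21.9 and 44.9% with IgG. Haptoglobin (Hp) had a difference of 2.31, and 1.34 without those cells. Ccl24 stood at 339, 83.9 and 169 CPM with anti-VSIG4, against 43.3, 30.2 and 26.4 CPM with IgG, and its difference of 2.73 became 0.65 without those cells.

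Adamts1, a secreted metalloprotease that cleaves proteoglycans such as aggrecan, stood at 12.6, 8.83 and 20.8 CPM with anti-VSIG4, against 69.8, 57.4 and 66.0 CPM with IgG. Its log2 difference was -1.98 ± 0.36 (edgeR unadjusted p = 1.9e-04, adjusted p = 0.50), and -1.71 without cells carrying other-type markers, which held 2.86% of its UMIs. In the remaining gate cells Adamts1 stood at 14.3, 21.6 and 16.6 CPM with anti-VSIG4 and 15.9, 33.0 and 20.6 CPM with IgG, where the groups overlapped. Its UMIs came from 91 of the 700 members, with at most 8.57% in 1 cell. Aqp1, a water channel, stood at 7.88, 4.42 and 5.54 CPM with anti-VSIG4, against 33.7, 79.3 and 26.9 CPM with IgG, a difference of -2.83 ± 0.60, and -2.50 without those cells.

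Ubd, a ubiquitin-like protein induced by interferon and TNF, stood at 3.15, 8.83 and 12.5 CPM with anti-VSIG4, against 69.8, 92.2 and 33.5 CPM with IgG. Its difference was -2.90 ± 0.58, but 1 cell held 38.3% of its UMIs and 42 members had any. Hmgb2, a chromatin protein high in dividing and in immature myeloid cells, stood at 509, 415 and 353 CPM with anti-VSIG4, against 202, 163 and 214 CPM with IgG, a difference of 1.22 that became 0.67 without cells carrying other-type markers. Without those cells Hmgb2 stood at 354, 424 and 120 CPM with anti-VSIG4, against 212, 146 and 222 CPM with IgG, so the groups overlapped and anti-VSIG4 mouse 3 was below every IgG value. Spink1, Wfdc21 and Cd177 had differences of 2.51, 2.92 and 3.44 and had 95.6, 87.7 and 80% of their UMIs in those cells.

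**Figure D5:**
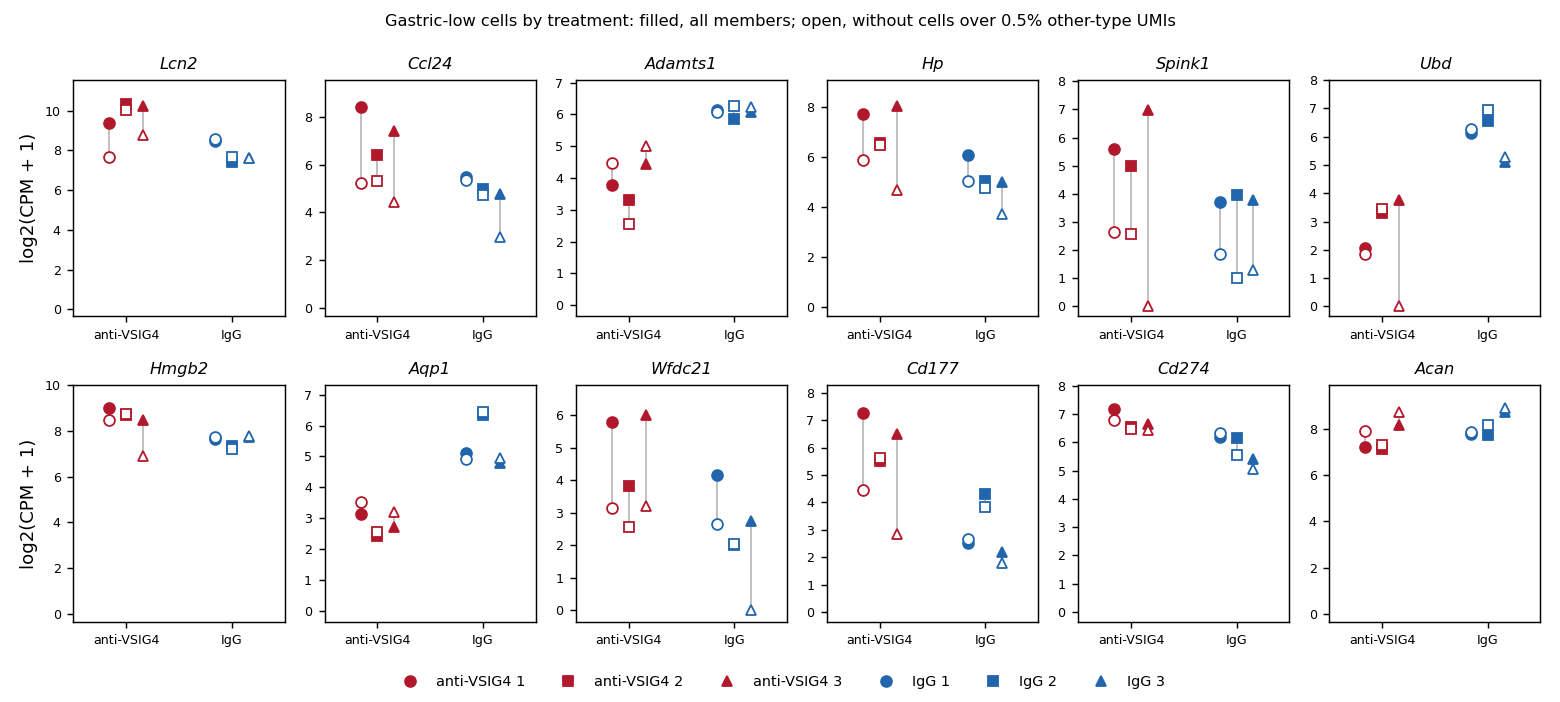
Level of the 10 genes with the smallest treatment p, and of Cd274 and Acan, in gastric-low cells as log2(CPM + 1), anti-VSIG4 libraries left of IgG libraries. Filled symbols use all members and open symbols leave out cells with more than 0.5% other-type UMIs. Adamts1, Ubd and Aqp1 keep anti-VSIG4 below IgG either way, while for Ccl24, Hp, Spink1 and Cd177 the gap narrows or closes; none of the 12 passed with edgeR.

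No member of any list passed, so list values are given as counts of signs, whose members are not independent, beside 3430 higher and 3464 lower of all 6894 genes. The acute phase list had higher values with anti-VSIG4 for 10 of 10 members, with a median log2 difference of 1.39, and of 0.79 without cells carrying other-type markers. Neutrophil markers were higher for 9 of 9 (median 1.25) and macrophage markers for 14 of 14 (median 1.08). These medians were 1.19 and 1.30 in the remaining gate cells, so the same markers stood higher with anti-VSIG4 in both. MHC class II was higher for 6 of 6, with a median of 0.81. Whether those cells or their RNA account for the acute phase values was not tested.

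Values were lower with anti-VSIG4 for 13 of 13 cholesterol genes (median -0.35), 23 of 25 adhesion and laminin genes (median -0.33), 17 of 22 early response genes (-0.39), 25 of 30 mesenchymal genes (-0.23) and 16 of 23 YAP and TGF-beta genes (-0.33). The same 5 lists had medians in the remaining gate cells of -0.08, -0.09, -0.27, 0.12 and -0.12. Of the first 2 lists, 9 of 10 and 23 of 25 genes were lower without cells carrying other-type markers. Inside the first 2 lists, Cyp51 was at -1.01 and the integrin Itgb4 at -1.08. Elf3, an epithelial transcription factor, stood at 101, 110 and 94.2 CPM with anti-VSIG4, against 238, 214 and 207 CPM with IgG, with no overlap and a difference of -1.05 (edgeR unadjusted p = 0.0012, adjusted p = 0.64). Zeb2 and Vim differed by -0.05 and -0.10.

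Interferon-gamma genes were higher for 13 of 18 (median 0.10), and MHC class I genes for 10 of 19 (median 0.01). The median in the remaining gate cells was -0.36 for the first list and -0.22 for the second, and no member of either list passed the test of the difference between the sets. Cd274, with the per-mouse values given above, did not overlap between treatments and differed by 0.97 ± 0.33 (edgeR unadjusted p = 0.013, adjusted p = 0.95). The difference was 0.98 without cells carrying other-type markers. Acan differed by -0.49 ± 0.36, Tnnt2 by 0.42 ± 0.72 and Tm4sf1 by -0.20 ± 0.37, with overlapping groups. The cycling share was 0.144 ± 0.0233% with anti-VSIG4 and 0.138 ± 0.0254% with IgG (SD, n = 3 each, exact two-sided permutation p = 0.7, the smallest possible being 0.1).

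Whether the treatment difference in gastric-low cells differed from that in the remaining gate cells was tested by an interaction term. Of 10123 genes, 5 passed with edgeR (0.0494%), Ngp above 0 (0.00988%) and Fam167b, Gpihbp1, Gng11 and Plat below (0.0395%). Within the remaining gate cells alone, edgeR called 0 of 9257 genes for treatment, with 369 at an unadjusted p under 0.05. Plat, which encodes tissue plasminogen activator, stood at 109, 52.997 and 132 CPM in anti-VSIG4 gastric-low cells and 159, 204 and 270 CPM in IgG gastric-low cells. In the remaining gate cells Plat stood at 203, 116 and 244 CPM with anti-VSIG4 and 104, 116 and 220 CPM with IgG, where the groups overlapped. Without cells carrying other-type markers 4 of 9399 genes passed, 3 of them among these 5, and Plat was at -1.25 (edgeR adjusted p = 0.162). Plat then stood at 176, 53.7 and 193 CPM in anti-VSIG4 gastric-low cells and 170, 264 and 299 CPM in IgG ones, with overlap. Its interaction with all members was -1.47 log2 units, it was seen in 210 of the 700 members, and it lost its call without each of the 6 libraries in turn (edgeR adjusted p = 0.0781 to 0.817).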

How the data were processed

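The authors deposited UMI counts per gene and barcode for 6 libraries, per the file headers made with PISA 1.0; the submitters' processing notes name STAR and Seurat 4.11. The genome build and annotation were not given in the sources used here. The counts were used as deposited, and every barcode held at least 1000 UMIs. Barcode names are running cell numbers, of which library pairs share 1018 to 1827, so they identify no shared cells. Doublets were not removed.

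Gate, ranking and groups are described above. CPM is scaled to the summed UMIs of a library and part, with no scaling between libraries. Sums were tested with edgeR 4.0.16 (R 4.3.3, TMM, quasi-likelihood, low-count filter), with library as a block between parts, treatment alone within gastric-low cells, and their interaction. DESeq2 1.42.0 was an alternative. Python 3.11.15, numpy 2.4.6, pandas 2.3.3, scipy 1.17.1 and matplotlib 3.10.9 did the rest. GENCODE gene spans served the long-gene measure alone and covered 88.3% of genes and 97.0% of UMIs. The fits were tested on simulated data. Intervals cover counting error only.

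Members, lists and the 0.5% limit were chosen with earlier results of these data known. Genes named are a fixed set, the 15 largest called differences per direction at 50 CPM or more with one sign in 6 of 6 libraries, the 10 smallest treatment p at 20 CPM or more, the interaction calls, and examples from each list. The gastric examples that rose, and Fbln2, Frmd6 and Zfp469 beside lists they are not in, were placed after their values were seen. A few genes that this rule names are not reported here.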

Additional observations from a re-analysis of the deposited data

Results flagged for a closer look

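For 5 genes the treatment difference in gastric-low cells differed from that in the remaining gate cells by the interaction term, with an edgeR adjusted p under 0.05. Fam167b had an interaction of -10.33 log2 units, with 1.58, 0 and 0 CPM in anti-VSIG4 gastric-low cells and 2.41, 96.0 and 51.1 CPM in IgG ones, and was seen in 15 members. Its levels in the remaining gate cells were 12.2, 2.40 and 1.38 CPM with anti-VSIG4 and 1.13, 0.333 and 0.155 CPM with IgG. Gpihbp1, an endothelial surface protein, had -8.60, with 42.7% of its UMIs in 1 of 11 cells. It stood at 4.73, 4.42 and 1.38 CPM in anti-VSIG4 gastric-low cells and 2.41, 49.1 and 7.92 CPM in IgG ones. Its levels in the remaining gate cells were 52.4, 2.40 and 0.690 CPM with anti-VSIG4 and 0, 0.333 and 0.155 CPM with IgG. Gng11 had -6.36, with 39.2% of its UMIs in 1 of 29 cells. It stood at 4.73, 8.83 and 1.38 CPM in anti-VSIG4 gastric-low cells and 4.81, 175 and 21.6 CPM in IgG ones. Its levels in the remaining gate cells were 7.89, 4.80 and 4.83 CPM with anti-VSIG4 and 0, 1.33 and 0.929 CPM with IgG. Ngp, a neutrophil granule protein, had 7.49, with 97.8% of its UMIs in cells carrying other-type markers and 69.7% in 1 cell. It stood at 241, 0 and 539 CPM in anti-VSIG4 gastric-low cells and 2.41, 0 and 1.76 CPM in IgG ones. Its levels in the remaining gate cells were 7.17, 1.20 and 8.97 CPM with anti-VSIG4 and 0, 0.666 and 9.29 CPM with IgG. Plat had -1.47 and came from 210 members. Summed endothelial markers were 37.8, 70.7 and 19.4 CPM in anti-VSIG4 gastric-low cells and 48.1, 241 and 50.6 CPM in IgG ones. Their part in the values of Fam167b, Gpihbp1 and Gng11 was not tested. No call of these 5 held with the replicate number as the block in place of the library. That fit drops the pairing of sums from the same mouse, so the lost calls say nothing about replicate number.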

How the results depend on the processing

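Deviations from the group mean correlated at 0.04, -0.27 and 0.30 for same-numbered mice, and at -0.33 to 0.24 for mice of different number. With 3 mice per group, such values cannot settle whether replicate numbers pair the libraries. With the replicate block the treatment contrast gave 6 calls. The interaction gave 0 with that block in place of the library block, a fit without the pairing of sums from the same mouse. The treatment contrast, with 0 calls, gave 82 without a low-count filter, 15 with DESeq2, 3 in libraries with few long-gene cells alone and 101 in those with many, and 0 to 5 leaving out 1 library, 5 without IgG mouse 2. Gastric-low against remaining cells, with 2208 calls, gave 920 on thinned ranking and 1272 to 2350 leaving out 1 library. Without cells holding 3 or more other-type UMIs it gave 145, of 1373 genes that could be tested. The interaction, with 5 calls, gave 38 without a filter, 94 on thinned ranking, 0 at a keratin minimum of 10, 0 without cells holding 3 other-type UMIs, 1 with 0.5% cells left out before ranking, 1 against the top of the gate, and 0 to 9 leaving out 1 library.

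The cycling difference between the sets, -0.0442 percentage points, was -0.0254 for G2/M alone, -0.502 as a share of thinned cells, -0.0194 on thinned ranking, -0.0374 in depth bins, 0.0119 without cells holding 3 other-type UMIs, and -0.0522 to -0.0383 leaving out 1 library (exact p = 0.0625, the smallest for 5). By treatment, 0.00526 became -0.00956 for S alone, -0.0556 without cells holding 3 other-type UMIs, -0.0341 on thinned ranking, -0.0315 and -0.0169 with 0.5% cells left out before and after ranking, -0.00269 in depth bins, -0.0180 without Hmgb2, and -0.00835 to 0.0179 leaving out 1 library (-0.00503 without anti-VSIG4 mouse 1).

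Reversed gene values, as log2 differences between the sets, were on thinned ranking -0.23 for Tnnt2, -0.55 for Tm4sf1, -0.20 for Vim, 0.094 for Top2a and -0.011 for B2m. At a keratin minimum of 10 they were -0.068 for Fcgr3, -0.24 for F10, -0.26 for B2m and 0.087 for Cdkn2a. Without cells holding 3 other-type UMIs they were 0.79 for Top2a, -0.17 for B2m and 0.0078 for Msln, which that filter itself counts. With 0.5% cells left out before ranking they were -0.0072 for Reg3b, 0.024 for Mki67, -0.17 for B2m and 0.068 for Cdkn2a, and after ranking -0.26 for B2m and 0.092 for Cdkn2a. At 2000 UMIs or more they were 0.049 for Mki67, 0.094 for Top2a and 0.0063 for H2-D1. Against the top of the gate they were 0.070 for Top2a and -0.068 for B2m. In depth bins they were 0.13 for Top2a and 0.0036 for H2-D1. B2m was -0.018 without a filter, and H2-D1 0.015 with RLE factors, 0.017 with DESeq2 and 0.011 with a mitochondrial filter. Leaving out 1 library, Top2a ran from -0.22 to 0.097, B2m from -0.016 to 0.086 and H2-D1 from -0.086 to 0.063. By treatment, Hmgb2 was -0.47 without cells holding 3 other-type UMIs. Interactions on thinned ranking were 1.95 for Fam167b, 0.80 for Gpihbp1 and -2.73 for Ngp. The cause of these changes was not tested.

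Between the sets, 787 gene results kept direction and side of the threshold, 69 lost a call, 19 gained one and 37 turned. By treatment 168 kept both, 29 gained a call and 1 turned, and for the interaction 46 kept both, 34 lost a call and 3 turned. Gastric-low sums, which began at 226427 UMIs, limit what the treatment contrast can detect.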
